A study of Mus musculus with 2 samples.

Results

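Short chromatin loops, those whose anchor midpoints lie less than 100 kb apart on the 19 autosomes, were described in cortex from mice with an experimental stroke and from mice with sham surgery. Members were chosen by span alone, and 4669 of the 30371 loops of both deposited lists qualified. The stroke group, called MCAO, had its middle cerebral artery blocked from inside by a filament for 1 h, and the ischemic part of the cortex was taken on that side after 6 h of reperfusion. Sham mice went through the surgery without the filament and the occlusion, and were also kept for 6 h. The labels speak of 3 cortices per group and each group has 1 list, so replicates were lacking and the conditions were not tested against each other. The labels give neither strain, sex nor age of the mice. Loop positions give no RNA level, so the tissue label could not be checked against marker expression. In bulk tissue, a loop present in more cells and a loop held more firmly by the same cells cannot be told apart.

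Hi-C joins DNA segments that lie close together in the nucleus and sequences them as pairs, and a loop is a pair of segments, its anchors, joined more often than their distance along the chromosome predicts. Many loops of mammalian chromosomes form when cohesin extrudes DNA until it meets the insulator protein CTCF. Others bring promoters together with enhancers or with other promoters, and some join the start of a gene to its end. Contacts over short distances are frequent everywhere, so short loops have to stand out from a high local background.

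The MCAO list held 2522 short loops among 15384 autosomal loops, and the sham list held 2147 among 14510. A paired-end tag (PET) is a sequenced pair that joins both anchors. The MCAO library held 40550536 PETs and the sham library 34974213, a depth ratio of 1.16. Both lists begin at 10 PETs per loop and reach an FDR of at most 0.05, so a loop that is missing from a list may lie just under these limits. Intervals below are 95% intervals and cover counting error only.

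A gene was placed at an anchor when an end of it lay within 2.5 kb of the anchor, using 20665 autosomal protein-coding genes of RefSeq on GRCm38.p6, the assembly of mm10. In both libraries 5 genes had their start and their end joined by a short loop, and their promoters are shown because each lies at an anchor of that loop in both libraries. The RefSeq table of promoters on GRCm38.p6 gives 300 bases per promoter, 250 before and 50 after the start. Capitals mark matches, on either strand, to the GC box GGGCGG, the TATA box TATAAA, the cAMP response element core TGACG, the AP-1 site TGANTCA and the CTCF core spelled as AGGGGGC, as AGGTGGC, as AGAGGGC or else as AGATGGC, and neighbouring matches can overlap. The promoters were those of Ahrr (chr13:74292282-74292581, minus strand), a repressor of the aryl hydrocarbon receptor, Cct6a (chr5:129787106-129787405, plus strand), a subunit of the cytosolic chaperonin, Dennd2a (chr6:39557785-39558084, minus strand), an activator of Rab GTPases, Fam13a (chr6:59024453-59024752, minus strand), and Ube2g1 (chr11:72607011-72607310, plus strand), a ubiquitin-conjugating enzyme.
Ahrr: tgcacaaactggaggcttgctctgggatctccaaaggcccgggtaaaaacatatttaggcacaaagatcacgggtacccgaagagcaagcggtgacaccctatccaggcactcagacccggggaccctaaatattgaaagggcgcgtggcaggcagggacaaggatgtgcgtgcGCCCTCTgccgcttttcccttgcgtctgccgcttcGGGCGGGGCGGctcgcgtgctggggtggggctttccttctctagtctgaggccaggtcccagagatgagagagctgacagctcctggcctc
Cct6a: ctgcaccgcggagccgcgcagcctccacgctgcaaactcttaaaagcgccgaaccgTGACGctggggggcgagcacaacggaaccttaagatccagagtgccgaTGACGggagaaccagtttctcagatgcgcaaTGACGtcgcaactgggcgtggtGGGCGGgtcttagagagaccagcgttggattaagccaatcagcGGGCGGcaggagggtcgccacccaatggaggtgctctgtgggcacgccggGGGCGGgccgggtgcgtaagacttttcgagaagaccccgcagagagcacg
Dennd2a: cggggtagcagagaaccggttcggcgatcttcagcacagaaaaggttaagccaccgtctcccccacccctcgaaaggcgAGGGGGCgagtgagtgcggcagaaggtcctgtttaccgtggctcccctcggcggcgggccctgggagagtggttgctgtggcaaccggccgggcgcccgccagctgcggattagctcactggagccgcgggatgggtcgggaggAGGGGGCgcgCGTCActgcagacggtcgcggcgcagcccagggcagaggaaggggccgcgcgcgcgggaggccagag
Fam13a: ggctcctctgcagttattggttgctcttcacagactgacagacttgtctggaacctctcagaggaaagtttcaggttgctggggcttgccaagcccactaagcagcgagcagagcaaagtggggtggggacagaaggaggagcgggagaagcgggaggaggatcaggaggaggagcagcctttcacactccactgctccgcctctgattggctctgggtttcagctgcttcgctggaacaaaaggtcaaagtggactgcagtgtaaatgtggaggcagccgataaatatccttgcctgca
Ube2g1: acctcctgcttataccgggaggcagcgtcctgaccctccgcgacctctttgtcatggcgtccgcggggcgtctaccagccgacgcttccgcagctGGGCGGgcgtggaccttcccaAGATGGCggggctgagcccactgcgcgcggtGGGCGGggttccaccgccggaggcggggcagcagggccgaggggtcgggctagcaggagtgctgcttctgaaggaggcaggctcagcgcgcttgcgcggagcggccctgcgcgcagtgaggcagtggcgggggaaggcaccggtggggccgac

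The share of G and C was 55.0% in the Fam13a promoter and reached at most 72.7% in these promoters, against a median of 57.0% over 20085 promoters. The cAMP response element core stood 3 times in the Cct6a promoter and once in that of Dennd2a, and 24.0% of all promoters hold it. A CTCF core stood in the promoters of Dennd2a, which has 2, Ahrr and Ube2g1, and 30.3% of all promoters hold at least 1 of the 4 cores. GC boxes stood in the promoters of Ahrr, Cct6a and Ube2g1, against 47.0% of all promoters. The Fam13a promoter held none of the letters searched. The AP-1 site and the TATA box, which 7.06% and 12.7% of all promoters hold, stood in none of these promoters.

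The short loop that ranked among the first 2 by PETs in both libraries joined the promoter of Arl4d (chr11:101665291-101665590, plus strand), a small GTPase gene, to that of Dhx8 (chr11:101732706-101733005, plus strand), an RNA helicase gene of the splicing machinery. This pair was chosen for display after its values were seen. It was carried by 46 PETs in MCAO and 35 in sham, 1.13 times as many per 1000000 PETs (0.715 to 1.81), an interval that holds 1.
Arl4d: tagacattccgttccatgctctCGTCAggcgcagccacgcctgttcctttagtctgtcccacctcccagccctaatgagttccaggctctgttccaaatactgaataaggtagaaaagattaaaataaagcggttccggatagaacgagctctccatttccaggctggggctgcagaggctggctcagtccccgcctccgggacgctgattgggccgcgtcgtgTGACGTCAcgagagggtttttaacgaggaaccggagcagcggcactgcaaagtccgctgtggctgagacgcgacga
Dhx8: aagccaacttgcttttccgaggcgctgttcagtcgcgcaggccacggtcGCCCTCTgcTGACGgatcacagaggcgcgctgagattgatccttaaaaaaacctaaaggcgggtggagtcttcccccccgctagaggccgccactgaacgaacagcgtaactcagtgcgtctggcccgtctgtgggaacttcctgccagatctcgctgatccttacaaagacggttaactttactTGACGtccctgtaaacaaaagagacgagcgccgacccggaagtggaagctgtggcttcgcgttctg

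Both promoters of this pair held the cAMP response element core, 3 matches at Arl4d, of which 2 overlap in a palindrome, and 2 at Dhx8. Neither held a GC box, and a CTCF core stood at Dhx8 alone.

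The ratio of short loop numbers lay near the depth ratio, and its direction turned with the minimum of PETs. Short loops made up 16.4% (15.8 to 17.0) of autosomal MCAO loops and 14.8% (14.2 to 15.4) of sham loops, a difference of 1.60 percentage points (0.770 to 2.42). The ratio of their numbers, MCAO over sham, was 1.17 (1.11 to 1.24), close to the depth ratio of 1.16, and the libraries held 62.2 and 61.4 short loops per 1000000 PETs. Another setting required at least 12 PETs in MCAO and 10 in sham, which scales the minimum to depth and rounds it up. The ratio was then 0.551 and the difference in share was -2.45 points, so both turned. The rounded minimum is somewhat stricter in MCAO than the depth ratio of 1.16 asks for. It leaves out the loops with 10 or 11 PETs, 53.1% of MCAO short loops. With at least 15 PETs in both, where the weakest loops of both libraries are left out, the ratio was 1.95. This equal minimum is not scaled to depth and is less strict in the deeper MCAO library.

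Longer loops had other ratios. The ratio was 1.35 (1.28 to 1.43) for loops of 100 to 200 kb, 0.994 (0.964 to 1.02) for those of 200 kb to 1 Mb and 0.843 (0.785 to 0.905) beyond 1 Mb. Short loops were more numerous in MCAO than in sham on 13 autosomes, fewer on 5 and equal on chromosome 18. The highest ratio was on chromosome 17, with 107 and 69 short loops (1.55, 1.14 to 2.13), and the lowest on chromosome 16, with 84 and 101 (0.832, 0.615 to 1.12).

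The median span was 71.1 kb (70.0 to 72.4) in MCAO and 70.4 kb (69.1 to 71.5) in sham, and the difference of 0.782 kb had an interval that holds 0 (-0.836 to 2.55). It depended on the loops kept: the difference was -4.12 kb (-6.96 to -0.273) with at least 15 PETs, 5.49 kb (3.16 to 7.38) with the minimum scaled to depth and 3.57 kb (1.31 to 6.04) for anchors under 10 kb wide. Loops of 75 to 100 kb made up 43.5% and 42.2% of them, and loops under 25 kb 1.31% and 2.10%. The limit cut through a continuous range: the last loop inside it spanned 99.9995 kb in MCAO and 99.9905 kb in sham, and the first outside spanned 100.008 kb in both.

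The median of the mean anchor width was 9.64 kb (9.44 to 9.85) in MCAO and 10.2 kb (10.1 to 10.4) in sham, a difference of -0.603 kb (-0.853 to -0.320). It was -3.76 kb (-4.50 to -2.61) with at least 15 PETs, at 10.3 kb in MCAO and 14.0 kb in sham, and turned to 0.348 kb (-0.109 to 0.814) with the minimum of PETs scaled to depth. An anchor was wide for its loop, at a median of 14.7% of the span in MCAO and 15.2% in sham, against 6.99% and 6.78% among longer loops. Width also rose with span, with medians of 5.98 and 5.84 kb for loops of 25 to 50 kb and 11.4 and 11.8 kb for loops of 75 to 100 kb.

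**Figure D1:**
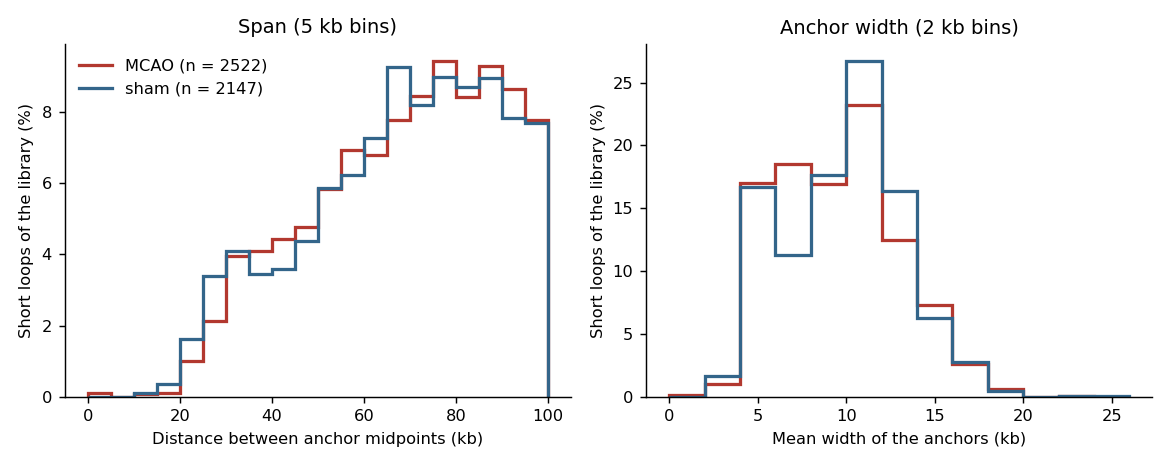
Distribution of span (left, 5 kb bins) and of mean anchor width (right, 2 kb bins) among short loops, as a percentage of the 2522 MCAO and 2147 sham loops. The span distributions lie close together, with medians of 71.1 kb in MCAO and 70.4 kb in sham, and the width distribution of MCAO holds more loops of 6 to 8 kb.

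Most short loops were weak. The median was 11 PETs in each library, with 53.1% of MCAO loops and 63.0% of sham loops at 10 or 11 PETs, against 34.7% and 38.5% of longer loops. At least 20 PETs, a number not scaled to depth, were carried by 136 MCAO loops (5.39%) and by 41 sham loops (1.91%). The strongest short loop had 54 PETs in MCAO and 36 in sham, while longer loops reached 238 and 207.

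The 3 shortest MCAO loops stood apart in form. They spanned 333.5, 1105 and 1590.5 bp, their anchors lay 6, 56 and 73 bp apart, and their anchors held 16 to 29 reads each. Among these, the loop of 1105 bp lay at Zfp981, a zinc finger gene, and the others lay at no gene end. The next MCAO loop spanned 10913 bp, and the shortest sham loop spanned 13791.5 bp with 112 and 90 reads at its anchors. None of the 3 had a partner in sham.

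Short loops lay at gene ends more often in MCAO than in sham. An anchor lay at a gene end in 64.2% (62.2 to 66.0) of MCAO short loops and in 50.7% (48.5 to 52.8) of sham short loops, a difference of 13.5 points (10.6 to 16.3). For loops of 100 to 200 kb this difference was 6.33 points, so the difference among short loops was larger by 7.15 points (3.27 to 11.0), and against all longer loops it was larger by 5.69 points (2.58 to 8.79). Among short loops with at least 15 PETs the share without a gene end was 23.3% in MCAO and 35.7% in sham, a difference of -12.4 points (-19.6 to -5.30).

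The kinds of gene contact did not share this difference equally. Loops with gene ends at 1 anchor alone made up 40.5% in MCAO and 31.6% in sham, a difference of 8.94 points (6.16 to 11.7). Loops that join 2 different genes made up 20.3% (513 loops) and 16.1% (345 loops), a difference of 4.27 points (2.02 to 6.50). Loops that join both ends of 1 gene made up 3.29% (83 loops) and 3.03% (65 loops), and that difference of 0.264 points has an interval that holds 0 (-0.786 to 1.29).

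Short loops with no gene end were correspondingly fewer in MCAO, at 35.8% (904 loops) against 49.3% (1059 loops) in sham. They were of 2 kinds. Those that lie wholly inside the body of 1 gene made up 14.9% (13.6 to 16.4) in MCAO and 23.1% (21.4 to 25.0) in sham, a difference of -8.20 points (-10.5 to -5.91), which was -3.71 points among loops of 100 to 200 kb. The remaining loops without a gene end made up 20.9% and 26.2%, a difference of -5.28 points (-7.76 to -2.81).

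**Figure D2:**
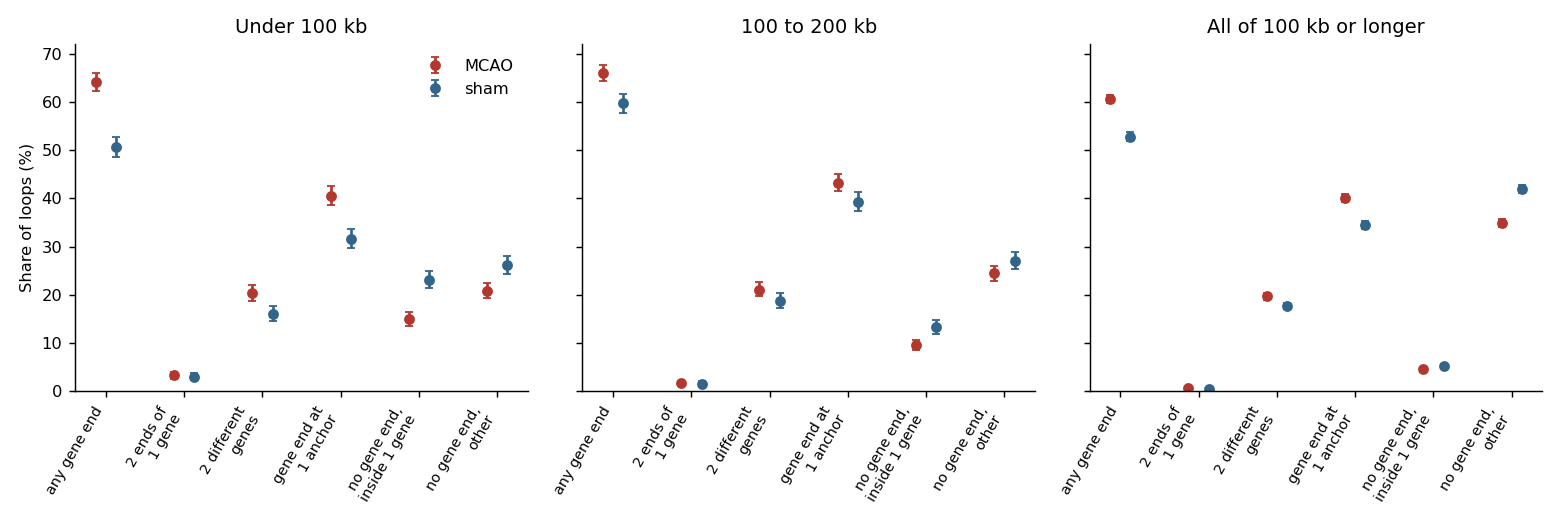
Share of loops of each kind in MCAO and sham for loops under 100 kb, loops of 100 to 200 kb and all loops of 100 kb or longer, with exact 95% intervals that cover counting error. Among short loops the MCAO share with any gene end is 64.2% against 50.7% in sham, while the shares that join 2 ends of 1 gene, 3.29% and 3.03%, have overlapping intervals.

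Gene density moved with this result. In windows of 1 Mb with 12 to 67 genes lay 46.4% of MCAO short loops and 37.3% of sham short loops, and in windows with 0 to 2 genes lay 9.67% and 18.5%. Within every class of windows the MCAO share at gene ends was the higher. It was 26.6% (21.2 to 32.7) in MCAO and 14.1% (10.8 to 17.9) in sham with 0 to 2 genes, and 46.8% (41.6 to 52.0) and 34.6% (29.7 to 39.9) with 3 to 5 genes. With 6 to 11 genes it was 59.6% and 51.5%, and with 12 to 67 genes 80.3% (77.9 to 82.6) and 75.3% (72.1 to 78.2), where the intervals overlap slightly.

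Read coverage at the anchors differed along the same classes. The median read density at short-loop anchors, in reads per kb and 1000000 PETs, was 0.731 in MCAO and 0.773 in sham in the windows with fewest genes, and 0.837 and 0.767 in those with most. The part of coverage in the difference at gene ends was not tested. By anchor width, the MCAO share at gene ends was also the higher in each of 6 classes. The intervals stood apart in 3 classes, with 70.7% (67.1 to 74.1) in MCAO and 55.4% (50.5 to 60.2) in sham for anchors of 5 to 7.5 kb, 62.8% and 45.3% for 7.5 to 10 kb and 58.8% and 45.9% for 10 to 12.5 kb. They overlapped in the other three, with 60.0% and 55.9% under 5 kb, 61.8% and 52.3% for 12.5 to 15 kb and 74.5% and 68.5% over 15 kb.

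**Figure D3:**
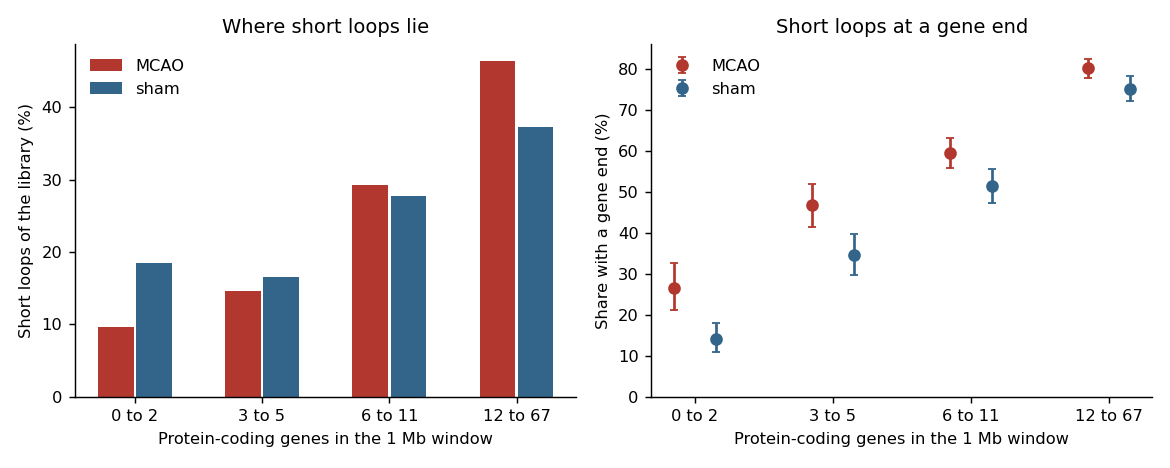
Left, percentage of the short loops of each library in windows of 1 Mb grouped by number of protein-coding genes. Right, share of the short loops of each group with an anchor at a gene end, with exact 95% intervals; the MCAO share lies above the sham share in all 4 groups, from 26.6% against 14.1% to 80.3% against 75.3%.

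The gene ends at short loops were mostly starts. Strand was known for 16457 of the genes, 79.6%. Among distinct gene ends at short loops, 67.5% (65.3 to 69.6) were 5′ ends in MCAO, 1311 against 632 3′ ends, and 67.0% (64.5 to 69.5) in sham, 924 against 455. The libraries differed by 0.468 points (-2.80 to 3.76). Among gene ends counted in the same way at longer loops the shares were 56.3% in MCAO and 55.7% in sham. Short loops thus exceeded longer ones by 11.1 points (8.67 to 13.6) and 11.3 points (8.44 to 14.1). The part of the genes left out in this excess was not tested.

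This excess shrank among loops with anchors of the same width. Among loops with a mean anchor width under 10 kb the short loops exceeded the longer ones by 5.25 points (0.412 to 10.1) in MCAO and by 1.42 points (-4.58 to 7.64) in sham. With widths of 10 to 15 kb the excess was 2.00 points (-2.35 to 6.29) and 0.0880 points (-4.85 to 4.98). All but the first of these intervals hold 0. Anchors of longer loops were wider, at medians of 26.5 kb in MCAO and 28.6 kb in sham.

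Most loops between 2 genes had a gene start at both anchors. Loops were left out when an anchor had no known 5′ end and held a gene without strand. This left 374 of 513 such loops in MCAO and 255 of 345 in sham. Of those left, 279 (74.6%, 69.9 to 78.9) in MCAO and 188 (73.7%, 67.9 to 79.0) in sham had a 5′ end at both anchors. Only loops with an anchor lacking a known 5′ end could be left out, which raises these shares. Anchors with 3′ ends alone on both sides made up 4.55% and 5.49%. Loops with a gene end at 1 anchor had the 5′ end in 71.9% of distinct gene ends in MCAO and 69.9% in sham, again without genes whose 2 ends share an anchor.

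Loops that join the 2 ends of 1 gene were found at 83 genes in MCAO and at 65 in sham, with 1 such loop at each gene. They were more frequent among short loops than among loops of 100 to 200 kb, at 3.29% against 1.66% in MCAO and 3.03% against 1.55% in sham, differences of 1.64 points (0.800 to 2.51) and 1.48 points (0.575 to 2.41). Since a span under 100 kb can join the ends of a short gene only, the number of genes of each length belongs beside these shares. Of 891 genes of 75 to 100 kb, 27 (3.03%) were joined in MCAO and 26 (2.92%) in sham. Of 1521 genes of 50 to 75 kb, 29 and 18 were joined, and of 3558 genes of 25 to 50 kb, 25 and 14. Of 12382 genes under 25 kb, none was joined in MCAO, which by the limit of 3 counts allows a share of up to 0.0242%, and 5 in sham.

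In MCAO the gene with most PETs between its ends was Acss1, a mitochondrial acetyl-CoA synthetase gene of 50.1 kb on chromosome 2, with 29 PETs. Its sham partner loop carried 25 PETs and joined Apmap to Acss1 and Vsx1, without the other end of Acss1. Lrrc8b, for a subunit of the volume-regulated anion channel, and Znrf1, for a ubiquitin ligase, had 23 PETs each in MCAO and no partner loop in sham. The retinoic acid receptor gene Rara had 22, also with no partner. The transcriptional repressor gene Ski had 18 and the tyrosine kinase gene Tnk2 17, the last with a sham partner loop of 10 PETs that lies at no gene end. Frmd6 and Lzts1 had 16 each and no partner in sham. The retinoid X receptor gene Rxra and Slc25a12 also had 16 PETs each in MCAO and no partner. They fell outside the 10 genes named by rule, since ties were broken by symbol.

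In sham the gene with most PETs between its ends was Slc26a6, an anion exchanger gene annotated with a length of 59.0 kb on chromosome 9, with 25 PETs. A partner loop in MCAO carried 24 PETs and joined Slc26a6 and Celsr3 to Uqcrc1. Sestd1 and Wls, which is needed for the release of Wnt proteins, had 19 PETs each in sham and no partner in MCAO. The phosphodiesterase gene Pde2a had 18 in sham, with an MCAO partner of 10 PETs that lay at no gene end. Ppp1r16b and the zinc finger gene Zfp52 had 17 each, the ubiquitin ligase gene Maea and the mucin gene Muc2 15 each, all with no partner in MCAO. Dpysl5, a gene of axon growth, had 15, with an MCAO partner of 20 PETs that misses an end.

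Few genes were joined end to end in both libraries. The 5 genes whose promoters are shown above were 6.02% of the MCAO genes and 7.69% of the sham genes. A low overlap was not particular to this kind of loop. Any partner loop in the other list was found for 14.5% of these loops in MCAO and 16.9% in sham. Over all short loops these shares were 10.5% and 12.2%. Dennd2a had 16 PETs in MCAO and 17 in sham. Ahrr, Cct6a and Fam13a had 11 each in MCAO and 13 each in sham, and Ube2g1 had 10 in both. The numbers of the last 4 genes lie near the minimum of 10.

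Anchors were narrower in MCAO at all 5 genes, by little at Ahrr, with 13.1 kb in MCAO and 13.3 kb in sham. At Ube2g1 the mean anchor width was 4.13 kb in MCAO and 9.08 kb in sham, and at Cct6a 9.75 and 13.4 kb. The start of the gene lay within the anchor in both libraries at Cct6a, Dennd2a, Fam13a and Ube2g1. At Ahrr the MCAO anchor ended just before the start, at -0.042 kb, and the sham anchor covered it. The far anchor began just beyond the 3′ end at Ahrr in sham, at 83.153 kb against a gene length of 81.214 kb. It also did so at Ube2g1 in MCAO, at 79.885 kb against 79.221 kb.

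**Figure D4:**
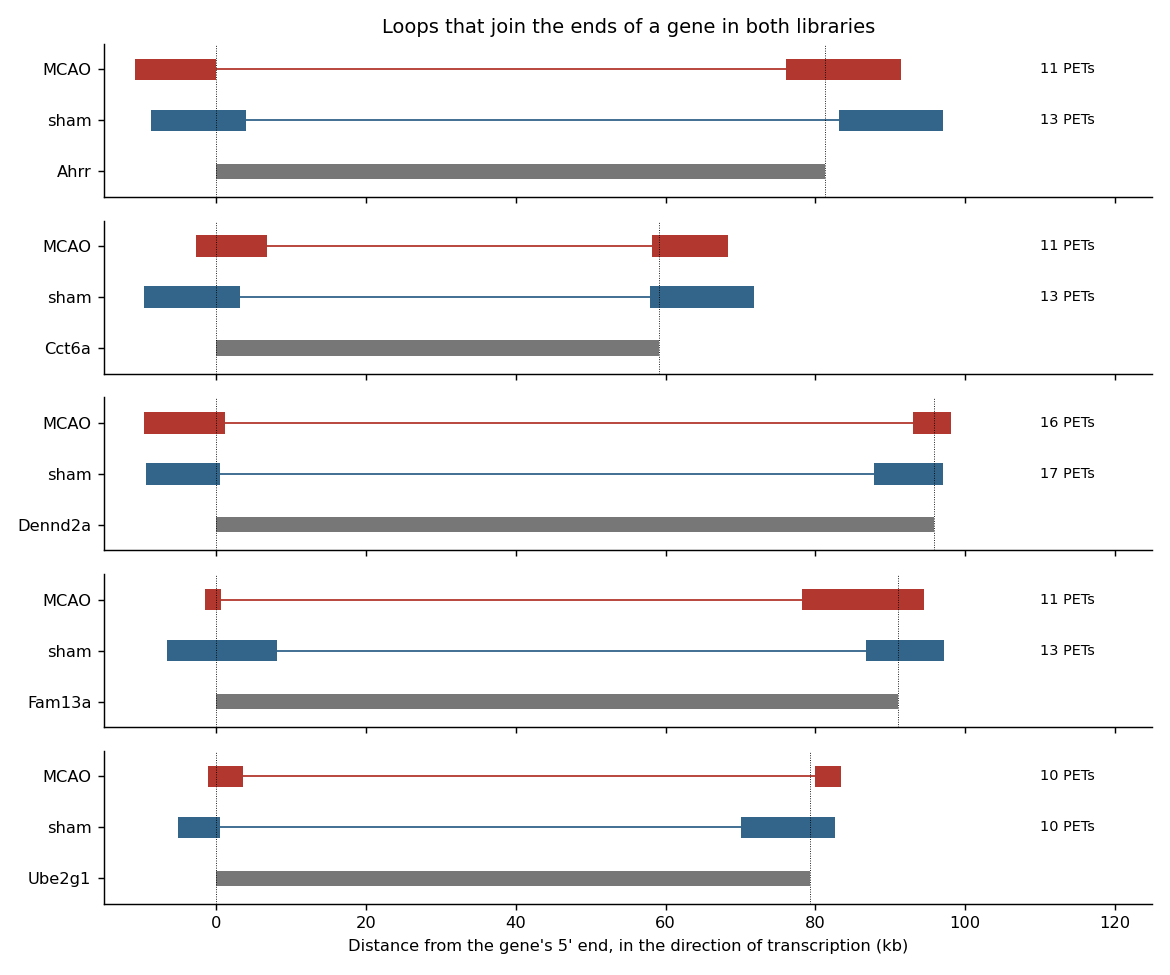
Anchors (thick bars) and the loop between them (thin line) in MCAO and sham at the 5 genes joined end to end in both libraries, against the gene (grey bar), as distance in kb from its 5′ end in the direction of transcription. Each loop has an anchor at or just before the 5′ end and an anchor at or just beyond the 3′ end, which lies at 59.1 to 95.8 kb, with 10 to 17 PETs.

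A short loop at a gene end was found at 2648 genes in MCAO and 1876 in sham, with 589 genes in both, 22.2% of the MCAO genes and 31.4% of the sham genes. At least 1 more short loop in MCAO was listed at 10.3% of the 20665 genes, and at least 1 fewer at 6.44%. A difference of 3 or more was rare, at 22 genes with more in MCAO (0.106%) and 5 with fewer (0.0242%). No gene had more than 4 short loops in MCAO or 3 in sham.

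Among genes with most short loops in MCAO, 4 neighbours on chromosome 6 shared their loops: Usp5, a deubiquitinase gene with 4 loops in MCAO and 1 in sham, the neuronal enolase gene Eno2 with 3 and 1, and the triosephosphate isomerase gene Tpi1 and Spsb2 with 3 and 0 each. The strongest of these joined Eno2 to Usp5, Tpi1 and Spsb2 over 53.5 kb with 24 PETs in MCAO and had no partner in sham. A loop of 59.8 kb from Eno2 to Usp5 had 12 PETs in MCAO and a sham partner of 16. Ephx4, of the epoxide hydrolase family, had 4 and 0 loops, each with 10 or 11 PETs, and none with a minimum of 12. Bcr had 4 and 2, which became 2 and 2 with the minimum scaled to depth and 1 and 1 with at least 15 PETs.

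The ribosomal RNA transcription factor gene Ubtf had 3 loops in MCAO and 0 in sham, of which the strongest had 26 PETs, spanned 92.2 kb and reached Slc25a39. At Lrrc8b the 3 MCAO loops carried 23, 18 and 15 PETs, and sham had 0. Lrrc8b was the 1 gene with a difference of at least 3 when 15 PETs were required. The cell cycle inhibitor gene Cdkn1a had 3 and 1, with 26 PETs in the strongest MCAO loop, which reached the splicing factor gene Srsf3. Its sham partner of 42.2 kb had 14 PETs and no gene end at the anchor away from Cdkn1a. The same sham loop was the partner of a Cdkn1a loop with 10 PETs in MCAO. Cyria had 3 and 1, the Notch coactivator gene Maml3, Medag, Ypel2 and the chromatin remodelling gene Bicra 3 and 0 each.

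In sham, Bmpr2, a receptor gene for bone morphogenetic proteins, had 3 short loops with 11 to 15 PETs, against 0 in MCAO. The clathrin light chain gene Cltb, the junction protein gene Jcad and the neighbours Cmss1 and Tmem30c, which share their loops, also had 0 in MCAO and 3 in sham. For 2 of the Jcad loops of sham the partner was the same MCAO loop, which had 14 PETs and lay at no gene end. Amphiphysin (Amph), the heparan sulfate gene Ext1, the nuclear lamina gene Tmpo and the neighbours Jmjd1c and Reep3, which share their loops, had 0 and 2 each. All of these had 0 and 0 with a limit of 75 kb, and Amph and Tmpo also with an FDR of at most 0.01. Over all spans Amph had 2 loops in MCAO and 3 in sham, Ext1 4 and 6, and Tmpo, Jmjd1c and Reep3 1 and 4 each. Asph had 2 and 2, and Cttnbp2nl and the endocytic adaptor gene Epn2 1 and 2 each. With at least 15 PETs no gene had 3 or more fewer in MCAO.

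Loops inside gene bodies lay in long genes, which the rule itself requires, since both anchors must fit inside the gene. The 377 MCAO loops and 497 sham loops of this kind lay in 327 and 396 genes, with 96 genes in both and median gene lengths of 275 and 283 kb. Among the genes with most of them over both libraries, chosen after their values were seen, was the neuregulin gene Nrg3 with 3 loops in MCAO and 3 in sham. Genes with 5 over both were the postsynaptic scaffold gene Dlg2 with 1 and 4, Nav2 with 4 and 1, Prickle2 with 3 and 2, and the splicing factor gene Rbfox1 with 2 and 3. Among the genes with 4 over both, the neuroligin gene Nlgn1 and the axon guidance receptor gene Robo2 had 0 and 4 each. Others with 4 were Adgrb3 and Atxn1 with 2 and 2 each and Pde4d with 3 and 1. At a gene end, Robo2 had 1 short loop of 56.3 kb with 12 PETs in MCAO and none in sham.

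Heat shock and chaperone genes had 11 distinct short loops in MCAO and 3 in sham. More were listed in MCAO at 6 of 18 genes (33.3%), fewer at none and equal numbers at 3, beside 10.3% and 6.44% over all genes, and the median difference was 0 in the list and over all genes. The co-chaperone genes Dnajb1, Bag3 and Dnajb5 had 2 and 0 each, and Hspd1 and Hspe1, which lie side by side, shared 1 and 0. Cryab, a small heat shock gene, had 1 and 0, and the stress-inducible Hspa1b, Hspa4 and the heat shock factor gene Hsf1 1 and 1 each. The MCAO loops carried 10 to 17 PETs and none had a partner in sham. With the minimum of PETs scaled to depth the list had 3 loops in each library, and an excess of this list among loops of all spans was known before these counts were made.

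Immediate early genes, which cells switch on quickly after stimulation, had 8 distinct short loops in MCAO and 5 in sham, with more at 7 of 24 genes (29.2%) and fewer at 4 (16.7%), beside 10.3% and 6.44% over all genes. Jun had 1 short loop of 43.9 kb with 15 PETs in MCAO and none in sham. Junb had 1 and 0, to Get3 and Trir with 16 PETs, and Nr4a1 1 and 0, to Grasp with 16 PETs. Fosl1, Fosl2 and the synaptic gene Arc also had 1 and 0, and Ier3 2 and 1. Fosb had 0 and 1, a loop of 45.6 kb to the DNA repair gene Ercc1 with 29 PETs in sham and no partner in MCAO. Atf3, Homer1 and the neurotrophin gene Bdnf had 0 and 1. With the minimum scaled to depth the list had 4 loops in MCAO and 5 in sham.

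Of 19 hypoxia genes, 6 (31.6%) had a short loop in at least 1 library, and of 20 inflammatory genes 5 (25.0%), beside 19.0% of all genes. Of the hypoxia genes, 4 (21.1%) had more in MCAO and 2 (10.5%) fewer, beside 10.3% and 6.44% of all genes, and their 4 distinct loops in MCAO and 3 in sham became 1 and 3 with the minimum scaled to depth. The glucose transporter gene Slc2a3, Adm, the oxygen sensor gene Egln1 and the glycolytic regulator gene Pfkfb3 had 1 and 0 each, while the stress gene Ddit4 had 0 and 2, both to Dnajb12, and Car9 0 and 1. Of the inflammatory genes, 2 (10.0%) had more (Nos2 and Socs3, 1 and 0 each) and 2 (10.0%) fewer (Ptgs2 and Ccl4, 0 and 1 each), while the adhesion gene Icam1 had 1 and 1.

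Synaptic vesicle and scaffold genes had 9 distinct short loops in MCAO and 4 in sham, with more at 5 of 23 genes (21.7%) and fewer at 2 (8.70%), beside 10.3% and 6.44% over all genes. The vesicle fusion genes Snap25 and Rab3a had 2 and 0 each. Syn2 and Stx1a had 1 and 0, and Syt1 had 0 and 1, with an MCAO partner of 17 PETs that spans 111 kb and so is not a short loop. The list had 6 and 4 loops with the minimum scaled to depth, and 4 and 0 with at least 15 PETs. Glutamate receptor genes had 3 and 2 distinct loops, among them 1 and 0 at Gria1 and Grik2 and 0 and 1 at Gria2 and Grin2c. More were listed in MCAO at 13.6% of these 22 genes and fewer at 9.09%, and the loops were 2 and 2 with the minimum scaled to depth. Axon guidance genes had 7 and 3, and 5 and 3 with the minimum scaled to depth. More were listed at 19.4% of 36 genes and fewer at 8.33%, beside 10.3% and 6.44% over all genes. Among them were 1 and 0 at Plxnd1 with 24 PETs and at the netrin gene Ntn4, whose loop joins its 2 ends. Sema4d, Plxna2 and Ephb2 had 0 and 1 each.

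Cell type marker genes had 0 to 3 distinct short loops per list and library. Excitatory neuron markers had 3 and 2, with 1 and 0 at Camk2a, Tbr1 and Cux1 and 0 and 1 at Cux2 and Nrgn. More were listed in MCAO at 20.0% of these 15 genes and fewer at 13.3%, beside 10.3% and 6.44% of all genes. The MCAO partner of the Cux2 loop had 27 PETs and spanned 108 kb. None of the 14 inhibitory neuron markers had a short loop in either library, beside 19.0% of all genes with one. Astrocyte markers had 3 and 1, with 1 and 0 at the glutamate transporter genes Slc1a2 and Slc1a3 and at Fgfr3, and 0 and 1 at Aldoc. More were listed at 23.1% of 13 astrocyte markers and fewer at 7.69%. Their loops became 1 and 1 with the minimum scaled to depth, and 0 and 0 with at least 15 PETs. Oligodendrocyte markers had 1 and 2, microglia markers 1 and 0 (Aif1, 25 PETs), endothelial and mural markers 2 and 1, and blood leukocyte markers 1 and 1. More and fewer were listed at 8.33% and 16.7% of 12 oligodendrocyte markers, and at 8.33% and 0% of 12 microglia markers. The shares were 16.7% and 8.33% of 12 endothelial and mural markers, and 9.09% and 9.09% of 11 leukocyte markers. With the minimum scaled to depth, oligodendrocyte markers had 0 and 2 loops and leukocyte markers 0 and 1. These numbers cannot show a change in cell composition, and its part in the results was not tested.

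Among genes of loop formation, Ctcf itself had 0 short loops in MCAO and 2 in sham, to Agrp and Atp6v0d1 and to Acd and its neighbours, with 11 PETs each. Mau2, of the cohesin loader, had 1 and 0, the cohesin release factor gene Wapl 0 and 1, and Zfp143 1 and 1. Of the 12 genes in this list, 8.33% had more in MCAO and 16.7% fewer, beside 10.3% and 6.44% of all genes. Their distinct loops were 2 and 4, also with the minimum scaled to depth, and 2 and 0 with at least 15 PETs. Neural transcription factor genes had 7 and 4 distinct loops, and 4 and 4 with the minimum scaled to depth. More were listed in MCAO at 16.1% of 31 genes and fewer at 6.45%, beside the same 10.3% and 6.44%. Hes1 had 2 and 1, Nfix, Sox5, Id4 and Zeb2 1 and 0 each, and Sox2 and Mef2c 0 and 1 each. Ribosomal protein genes had 6 and 6, housekeeping genes 3 and 4, and homeobox genes 2 and 0, among them 1 and 0 at Hoxc4. With the minimum scaled to depth, ribosomal protein genes had 3 and 6, housekeeping genes 0 and 4 and homeobox genes 1 and 0. Of 43 ribosomal protein genes, 6.98% had more and 6.98% fewer, and of 13 housekeeping genes 7.69% and 15.4%. Of 49 homeobox genes, 4.08% had a short loop, beside 19.0% of all genes.

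Short loops had a partner in the other list less often than longer loops. A partner has both anchor midpoints within 1 anchor width, taking the widest anchor of both loops. A partner was found for 10.5% (9.37 to 11.8; 266 loops) of MCAO short loops and 12.2% (10.8 to 13.7; 262 loops) of sham short loops, against 29.9% (29.1 to 30.7) of longer MCAO loops and 30.4% (29.5 to 31.2) of longer sham loops. The difference between the libraries was -1.66 points (-3.53 to 0.198) and turned to 6.90 points (4.49 to 9.41) with the minimum scaled to depth. The partner was itself short for 232 of the MCAO loops and 228 of the sham loops. Narrower anchors allow a smaller distance, which the rule itself fixes.

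The share with a partner grew with PETs in both libraries. It was 5.83% in MCAO and 7.03% in sham at 10 or 11 PETs, 32.2% (23.9 to 41.4) and 56.8% (39.5 to 72.9) at 20 to 29 PETs, and 55.6% (10 of 18) and 100% (4 of 4) from 30 PETs. Longer loops had shares of 16.1% and 15.9% at 10 or 11 PETs, 45.3% and 48.9% at 20 to 29 PETs, and 64.8% and 75.3% from 30 PETs, so in sham the short loops had the higher share from 20 PETs, with intervals that overlap (39.5 to 72.9 and 46.4 to 51.4 at 20 to 29 PETs). By kind, 14.5% and 16.9% of loops that join both ends of a gene had a partner, 13.3% and 20.0% of those between 2 genes, and 6.75% and 5.00% of those with no gene end.

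**Figure D5:**
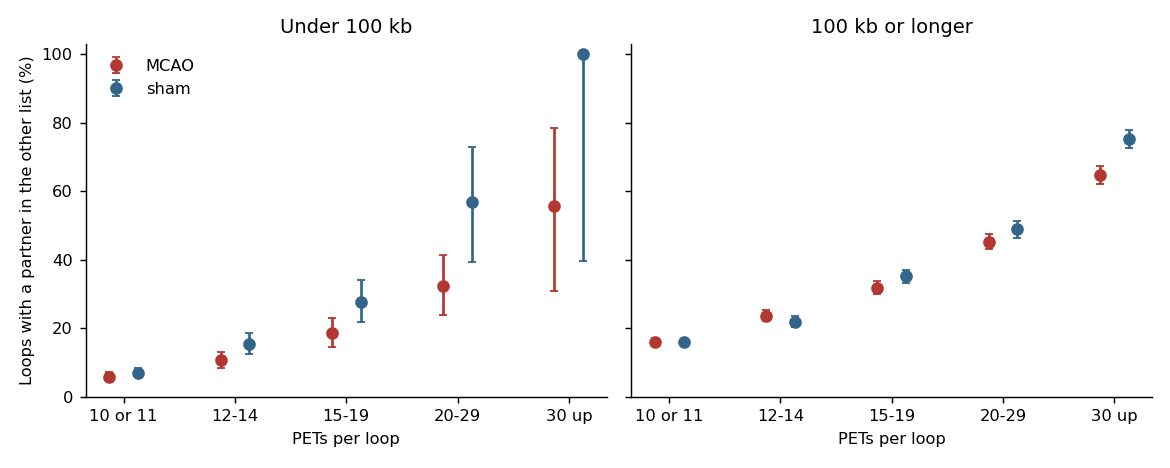
Share of MCAO and sham loops with a partner in the other list by number of PETs, for loops under 100 kb (left) and longer loops (right), with exact 95% intervals. Shares climb with PETs in every panel, among short loops from 5.83% in MCAO and 7.03% in sham at 10 or 11 PETs to 55.6% and 100% from 30 PETs, where 18 and 4 loops remain.

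PETs were compared in pairs of short loops that were each other's nearest partner. Both loops of a pair had to reach 10 PETs, and the pairs had medians of 14 PETs in MCAO and 13 in sham, so many of them could hardly show a 2-fold difference. Over 225 such pairs the depth-scaled PETs of MCAO over those of sham had a median log2 ratio of -0.10 and quartiles of -0.35 and 0.26, beside a median of -0.21 over all 3676 pairs. At least 2-fold higher in MCAO were 3 pairs (1.33%) and at least 2-fold lower 6 (2.67%), and 8.35% and 18.9% of the pairs of all spans, whose medians were 18 and 17 PETs, so these shares do not compare short with longer loops. Before scaling to depth, 122 pairs had more PETs in MCAO, 76 fewer and 27 the same number. Of the pairs 186 (82.7%) had the same kind of gene contact in both libraries.

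The pair with the largest ratio lay at Galnt15, a glycosyltransferase gene on chromosome 14, with 54 PETs in MCAO and 12 in sham, 3.88-fold per 1000000 PETs (2.05 to 7.97). This was the strongest MCAO short loop and had no gene end at its other anchor. A loop of 65.1 kb at the collagen gene Col1a1 had 36 and 10 (3.10, 1.51 to 7.02), and a loop at Dph1 and Rtn4rl1 26 and 10 (2.24, 1.05 to 5.21). Lowest in MCAO was a pair between Rrp8 and Mrpl17 with 10 and 22 (0.392, 0.166 to 0.863). These pairs were picked as the extremes, so an interval without 1 does not set them apart.

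Of the other strong MCAO short loops, that at the prion protein gene Prnp and Prn had 40 PETs in MCAO and 19 in its sham partner. Nr6a1 and Olfml2a were joined to the ribosomal protein gene Rpl35 and Wdr38 by 38 and 21 PETs, and Pafah2 to the microtubule regulator gene Stmn1 by 38 and 22. Loops at Dnajc27 had 38 and 18, at Ccdc163 and Tesk2 37 and 29, and at Ssbp3 34 and 20. A loop of 79.2 kb at Irf2bpl had 37 PETs in MCAO and no partner in sham.

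Of the strong sham short loops, that at Rd3 and Traf5, a signalling adaptor gene, had an MCAO partner of 107 kb with 13 PETs and carried 36 in sham. The cyclin genes Ccni and Ccng2 were joined by 24 and 31 PETs, and the kinase gene Eef2k and the RNA polymerase III gene Polr3e by 27 and 26. A loop at the stem cell antigen gene Cd34 had 25 and 30. The loops from Fosb and Rtn2 to Ercc1 (29 PETs in sham), from Snx20 to the deubiquitinase gene Cyld (27) and at Bcr (25) had no partner in MCAO.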

How the data were processed

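Per the labels' protocols, frozen cortex was processed into Hi-C libraries using Arima reagents. HiC-Pro and Bowtie2 with mm10 are named, per the submitters' processing notes. The loop caller is not given in the sources used here, nor is the step at which cortices were pooled.

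PET counts of loops and read counts of anchors were deposited by the authors as unscaled whole numbers. The deposited signal, called density, gave each library's PET total, since it equals PETs per kb of anchor per 1000000 PETs for every loop. The deposited enrichment ratio was not used, and the authors' p-value and FDR columns served only to describe or filter a list. No column of per-sample values was left without a sample (0 columns).

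Groups came from sample titles. Autosomal loops under 100 kb were kept, and genes were taken from RefSeq protein-coding genes within 2.5 kb. A loop with several gene contacts was counted once, as joining both ends of a gene first, then as joining 2 genes. Shares have exact Clopper-Pearson intervals, ratios exact binomial intervals, medians order-statistic intervals, and differences intervals combined from these. Python 3.11.15, numpy 2.4.6, pandas 2.3.3 and scipy 1.17.1 were used, and the steps were tested on simulated loops. Genes named are, per library, the 10 with most PETs in a loop between their ends, the 10 with most short loops, those at the 10 loops with most PETs, the 10 that differ most in either direction, and members of 19 gene lists with a short loop, of which a part is reported. Promoters were to be printed for up to 6 genes joined in both libraries, and 5 qualified. The loops, lists and comparisons were chosen with earlier results of these data known. Alternatives changed the minimum of PETs, the FDR, the span limit, chromosome X, the window at gene ends, the anchor width and the rule for partners. A few genes that met these rules are not reported here.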

Additional observations from a re-analysis of the deposited data

Results flagged for a closer look

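Chromosome X lies outside the autosomal comparison and also held short loops, 11 in the MCAO list and 19 in the sham list. No explanation was tested.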

How the results depend on the processing

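No paired analysis was possible because each group has 1 library. Of 96 values under alternatives, 58 stayed inside the interval of the value reported or within 1.5 times its count, 35 moved beyond it and 3, whose reported interval held no 0 (for the ratio, no 1), reversed. Differences whose reported interval held 0 also changed sign, that in span (0.782 kb as reported) with at least 15 PETs and, inside its interval, with a limit of 75 kb (-0.339 kb), and that in the share with a partner (-1.66 points) with the minimum scaled to depth. The alternatives for loops inside 1 gene and for the share of 5′ ends were chosen after seeing the data. With at least 15 PETs the ratio of numbers was 1.95, the difference in share of the list 3.16 points, in median span -4.12 kb, in median width -3.76 kb, in median PETs 1 and in the share with a partner -8.98 points. Genes with a difference of at least 3 numbered 1 with more and 0 with fewer in MCAO, and the excess of 5′ ends in MCAO was 13.8 points. With at least 12 PETs in MCAO and 10 in sham the ratio of numbers (0.551), the difference in share of the list (-2.45 points) and that in width (0.348 kb) reversed. The difference in span was then 5.49 kb, in PETs 3, in loops with no gene end -20.6 points, in loops inside 1 gene -11.8 points and in loops with a partner 6.90 points, and 6 genes had at least 3 more. Scaling the minimum, which was rounded up to 12, removes the MCAO loops with 10 or 11 PETs, 53.1% of its short loops. With an FDR of at most 0.01, 11 genes had at least 3 more and 1 at least 3 fewer. With a limit of 75 kb these numbers were 8 and 1, the difference in share 0.697 points, in width -0.944 kb, and the excess of 5′ ends in sham 14.7 points. With gene ends inside the anchor, 11 genes had at least 3 more and 3 at least 3 fewer, and the excess of 5′ ends was 15.8 points in MCAO and 15.4 in sham. With gene ends within 10 kb these were 44 and 13 genes and 4.86 and 6.22 points, and the difference in end-to-end loops was 1.42 points (-0.203 to 3.02). With anchors under 10 kb wide the difference in span was 3.57 kb, in loops inside 1 gene -11.7 points, and the excess of 5′ ends 5.25 points in MCAO and 1.42 in sham. Apart from the fewer loops and genes that a stricter limit leaves, the cause was not tested. In every alternative run, short loops had gene ends more often, joined 2 genes more often and lay inside 1 gene less often in MCAO, although at 15 PETs the interval for loops between 2 genes (-2.95 to 10.0) held 0.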
